A study of Drosophila melanogaster with 16 samples.

Results

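Female larvae with 3 copies of the left arm of chromosome 2 (trisomy 2L) that carried an MSL2 transgene were compared with trisomy 2L females without it. The series lists 16 libraries, of which 6 are of these groups, 3 of trisomy 2L females and 3 of MSL2-trisomy 2L females. Each was made from about 20 whole larvae of the third instar. Both groups have 2 X chromosomes (labelled XX,AAA) and came from y; C(2L)dp; F(2R) bw mothers, in which the left arms of chromosome 2 are joined. The fathers were Canton S for trisomy 2L and a strain homozygous for MSL2 transgenes on arm 2R for MSL2-trisomy 2L, so an effect of the transgene and an effect of the father's strain cannot be told apart. The promoter of the transgene, the age of the larvae in hours within the instar, and the number of independent insertions are not given in the sources used here. The methods list 3 libraries of each genotype in the same sequencing group, and further trisomy 2L libraries in another. Which of them entered the means is not given in the sources used here. The paper adjusted the values for batch and states that trisomic and MSL2-trisomic samples came from different batches. Batch and MSL2 may therefore not be separable in these means. Levels were deposited as a single mean per group, in CPM, which are counts scaled to the number of mapped reads of a library. No error, number of reads or test between libraries therefore accompanies any value, and "raised" and "lowered" below mean a ratio of the 2 means of at least 2-fold. Genes were taken at a mean of the 2 groups of at least 10 CPM, which held for 6469 of the 12379 genes with both means.

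MSL2 is the RING-finger protein that limits assembly of the Male Specific Lethal (MSL) complex. In normal males the complex, formed by MSL1, MSL2, MSL3, the helicase MLE, the acetyltransferase MOF and the roX RNAs, binds the single X chromosome and acetylates histone H4. In females the Sex lethal protein (SXL) represses msl-2, so the complex does not form unless MSL2 is supplied from a transgene. Late in the third instar, pulses of the steroid hormone ecdysone switch on glue genes in the salivary gland and storage protein genes in the fat body. Such genes of the fat body and salivary gland are thus known to change with larval age.

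The level of msl-2 (arm 2L, bases 3462218 to 3466112 of genome Release 6) was 20.1 CPM in trisomy 2L females and 177 CPM in MSL2-trisomy 2L females, an 8.80-fold rise. Both of its listed transcripts were higher with MSL2, at 1.71 and 45.7 CPM for the minor one and 18.4 and 131 CPM for the main one. The transgene and the resident gene cannot be told apart in these values. Of the partners, mle was lowered from 28.1 to 13.7 CPM, while msl-1 was at 33.6 and 29.96 CPM, msl-3 at 8.61 and 5.78 CPM and mof at 8.62 and 8.24 CPM. The lowering of mle lay close to the 2-fold limit, with a log2 ratio of -0.66 for its most abundant transcript alone. The RNA roX1 was at 15.2 and 23.4 CPM and roX2 at 0.519 and 0.606 CPM, so neither was raised 2-fold in the summed values. Sxl, which encodes the repressor of msl-2, was at 57.2 and 29.1 CPM (log2 ratio -0.98), just short of the 2-fold limit. It passed that limit with transcripts of only 1 group added (-1.06) and with its most abundant transcript alone (-1.07). Clamp, whose product guides the complex to the X chromosome, was at 65.9 and 45.4 CPM.

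Of the 6469 genes, 265 (4.10%) were raised and 403 (6.23%) were lowered in MSL2-trisomy 2L females. These shares are the background for the counts of called genes in each list below. With at least 10 CPM required in each group, 191 genes were raised and 269 lowered. The median log2 ratio of all genes was -0.08, with 50% of the genes, around that median, between -0.40 and 0.24, and 56.4% of the genes had a ratio below 1. Among the 158 genes at 1000 CPM or more, 7 were raised and 19 lowered. The trisomic arm 2L held 43 raised and 66 lowered genes of 1259, or 3.42% and 5.24%, and the X chromosome held 38 and 49 of 1059, or 3.59% and 4.63%. Arm 3L had 68 raised and 78 lowered genes of 1219 (5.58% and 6.399%), arm 2R 56 and 95 of 1339 (4.18% and 7.09%) and arm 3R 59 and 107 of 1546 (3.82% and 6.92%). Of only 47 genes on chromosome 4, 1 was raised and 8 were lowered (2.13% and 17.02%). At the limits of the rule, 13 raised genes had log2 ratios of 1 to 1.05 and 37 genes were just outside at 0.95 to 1. On the other side, 33 lowered genes lay between -1 and -1.05 and 40 genes between -0.95 and -1.

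**Figure D1:**
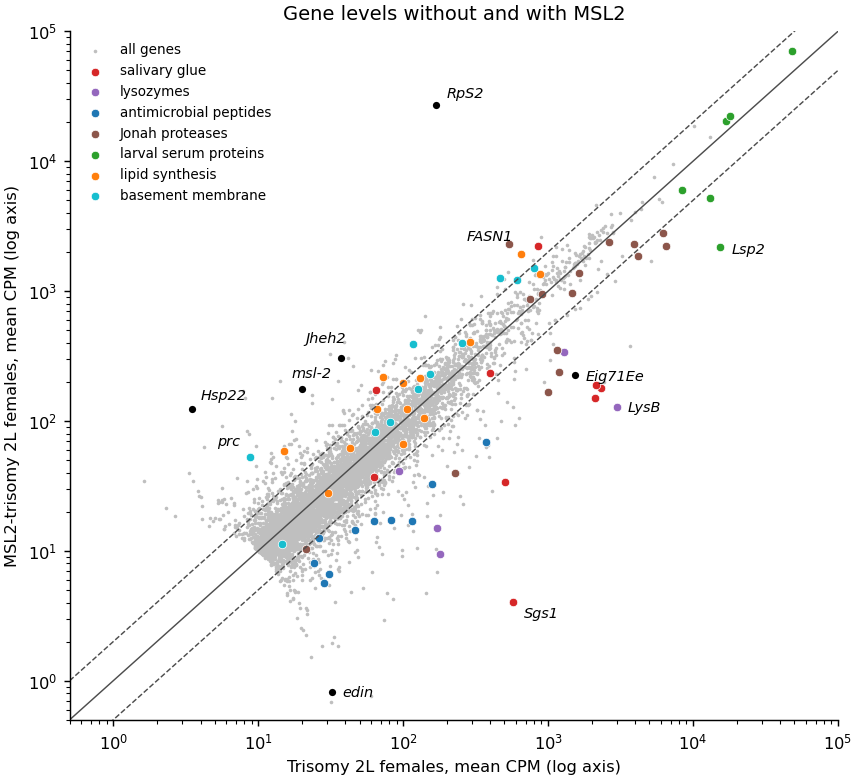
Mean CPM of each gene in trisomy 2L females (horizontal) and MSL2-trisomy 2L females (vertical), both on log axes, for the 6469 genes whose 2 group means average 10 CPM or more. The solid line marks equal levels and the dashed lines 2-fold differences; coloured points are members of gene lists. Most glue, lysozyme, antimicrobial peptide and Jonah protease genes lie below the lower dashed line, and RpS2, msl-2 and Hsp22 lie far above the upper one.

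Salivary glue genes included the largest fall among the named genes, that of Sgs1. Of 9 glue genes, which encode the secreted proteins that fix the pupal case to its support, 5 were lowered and 2 were raised, and their median log2 ratio was -3.50 against -0.08 for all genes. Sgs1 was at 572 CPM without MSL2 and 4.07 CPM with it, a fall by 7.14 on the log2 scale. Sgs3, Sgs7 and Sgs8, neighbours within 4.44 kb of arm 3L, went from 2319 to 179 CPM, from 2099 to 150.4 CPM and from 508 to 33.9 CPM. Sgs5 on arm 3R went from 2130 to 189 CPM. These 5 falls were between 11.3-fold and 141-fold, whereas Sgs4 on the X chromosome was at 400.3 and 235 CPM. The X-linked new glue genes ng3 and ng2, which are active earlier in the instar than the Sgs genes, were raised, from 849 to 2211 CPM and from 64.5 to 174 CPM. Their neighbour ng1 was at 62.5 and 37.2 CPM.

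Some other genes linked to the end of the instar were lowered in the same larvae. Eig71Ee, an ecdysone-induced gene of gland and blood cells, fell from 1537 to 225 CPM and was the only one of 9 genes of its family in the table with a value in both groups. Of 5 genes of ecdysone synthesis at this level, 3 were lowered: spok, an enzyme of the early steps in the prothoracic gland, from 24.7 to 5.13 CPM, sro from 38.8 to 17.1 CPM, and shd, which makes the active hormone in peripheral tissue, from 46.4 to 18.1 CPM. Among 13 ecdysone receptor and response genes, 2 were lowered and 12 had a ratio below 1, with a median log2 ratio of -0.55. The lowered ones were Eip71CD, at 127 and 38.7 CPM, and br, which encodes the Broad transcription factors, at 144 and 64.4 CPM. EcR, the receptor gene, was at 52.9 and 39.03 CPM. Stage within the instar can change such genes, and its part in the results was not tested.

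**Figure D2:**
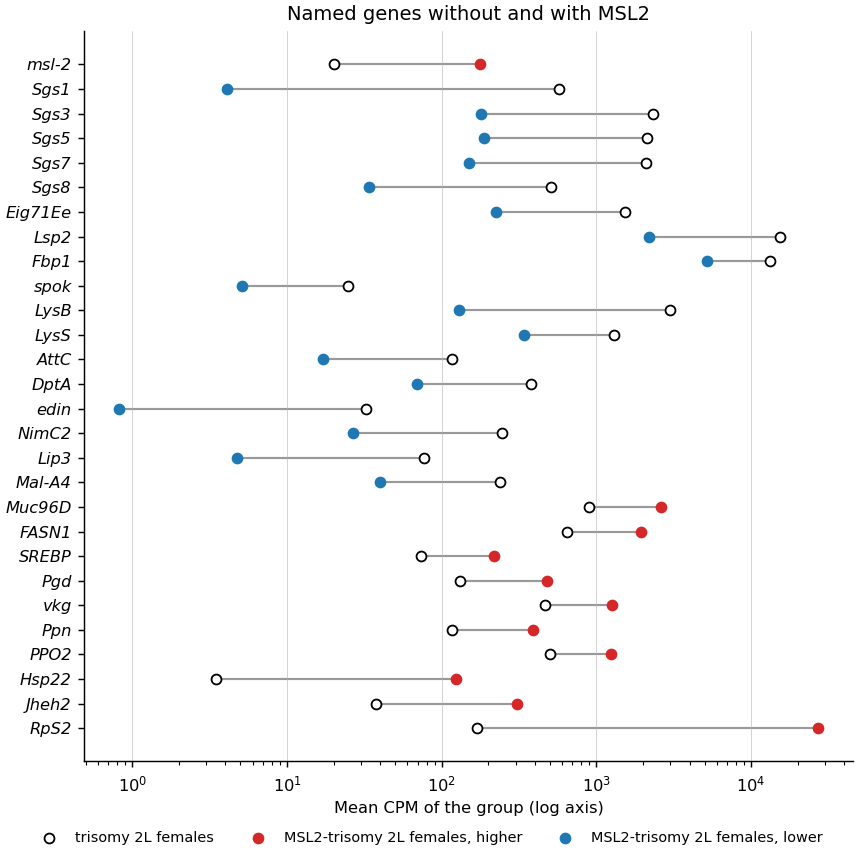
Mean CPM (log axis) of 28 named genes in trisomy 2L females (open circles) and MSL2-trisomy 2L females (filled circles, red where higher and blue where lower). Sgs1 spans 572 to 4.07 CPM and RpS2 spans 169 to 26912 CPM.

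The storage proteins of the fat body split into genes that fell and genes that did not. Lsp2, a hexamerin laid down late in larval life, fell from 15419 to 2178 CPM, and Fbp1, the receptor for hexamerin uptake, from 13174 to 5208 CPM. In contrast, Lsp1beta was at 48487 and 69957 CPM, Lsp1alpha at 16779 and 20206 CPM and Lsp1gamma at 17989 and 22190 CPM. The 3 Lsp1 genes together held 9.08% of all CPM without MSL2 and 11.8% with it. By the annotation, an antisense RNA covers 84.6% of the exon bases of Lsp2, and the sources used here do not say that strand was used in counting. Fewer cells of a type and less RNA per cell cannot be told apart in whole larvae.

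Genes for making fat and storing sugar were higher with MSL2. In a list of 13 genes of lipid synthesis, compiled after their values were seen, 3 were raised, none was lowered, 10 had a ratio above 1 and the median log2 ratio was 0.62. FASN1, the fatty acid synthase of the fat body, rose from 646 to 1926 CPM, SREBP, the transcription factor of lipid synthesis, from 73.1 to 218 CPM and S2P, the protease that frees SREBP from the membrane, from 14.97 to 58.4 CPM. ACC, the carboxylase that supplies malonyl-CoA, was at 131 and 214 CPM and ATPCL, which supplies acetyl-CoA, at 66.4 and 124 CPM. Enzymes that make NADPH or feed the pentose phosphate pathway had ratios above 1 in 5 of 6 cases, again in a list compiled after the values were seen, and Pgd on the X chromosome rose from 131 to 482 CPM. Apoltp, a lipid transfer protein of the blood, rose from 167 to 386 CPM, whereas mag, a gut and fat body lipase that turns over lipid, fell from 1869 to 875 CPM. Of 10 genes of glycogen and trehalose metabolism, also listed with their values known, 4 were raised and none was lowered: UGP from 57.5 to 148 CPM, the branching enzyme gene AGBE from 110.2 to 249 CPM, Gbs-76A from 57.1 to 118 CPM and PhKgamma from 12.4 to 27.9 CPM. For PhKgamma the log2 ratio was 0.46 in its most abundant transcript. Adh, alcohol dehydrogenase, rose from 2134 to 4591 CPM in the sum of its transcripts but had a log2 ratio of 0.22 in the most abundant one, and 93.9% of its exon bases also belong to Adhr.

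Digestive genes of the gut were among the most lowered groups. All 5 lysozyme genes at 10 CPM or more were lowered, with a median log2 ratio of -3.52. These enzymes digest the walls of bacteria taken in with food. LysB went from 2973 to 129 CPM, LysC from 179 to 9.45 CPM and LysE from 172 to 14.9 CPM, all within 6.04 kb of arm 3L (bases 1207371 to 1213406). Their near-identical neighbour LysD was listed at 2344 CPM without MSL2 and had no value with it. The authors' counting could split reads among these copies, and their summed level was 5668 CPM without and 153 CPM with MSL2. LysS, at 1293 and 340 CPM, and LysX, at 93.7 and 41.4 CPM, were lowered less. LysC passed the minimum of 10 CPM only through its level without MSL2.

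Of 15 Jonah genes, which encode serine proteases of the midgut, 8 were lowered and 1 was raised, and the median log2 ratio was -1.05. Jon44E fell from 1000 to 168 CPM, Jon25Bi from 1192 to 237 CPM and Jon99Ci from 226 to 39.98 CPM. The abundant Jon25Biii, Jon65Aiv and Jon99Cii fell from 6548 to 2219 CPM, from 6227 to 2801 CPM and from 4187 to 1869 CPM. Jon99Fii moved the other way, from 539 to 2285 CPM. Jonah genes lie in clusters of similar copies, and their separate values are uncertain to that extent. None of 11 midgut trypsin genes passed 2-fold, although 9 had a ratio below 1 and their median log2 ratio was -0.43. A list this short would hold few or no called genes at the shares of all genes.

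Sugar-digesting enzymes were also lowered. Of 12 maltase and amylase genes, 6 were lowered, among them Amyrel from 19.7 to 2.55 CPM, Mal-A4 from 238 to 39.99 CPM and Mal-A6 from 319 to 53.9 CPM. Amy-p, at 45.3 and 264 CPM, and its near-identical copy Amy-d, at 189 and 73.7 CPM, moved in opposite directions, and their sum was 234 CPM without and 338 CPM with MSL2. All 6 LMan genes, a family of lysosomal alpha-mannosidases on arm 2L compiled after their values were seen, had ratios below 1 and 4 were lowered. LManIV went from 33.3 to 2.15 CPM, LManIII from 119 to 38.7 CPM, LManV from 582 to 210.5 CPM and LManVI from 1536 to 727 CPM. Lip3, a lipase of digestion, fell from 76.9 to 4.73 CPM, and Npc2d, of a family of sterol-binding proteins, from 116 to 33.8 CPM. A broader list held 23 lipase, carboxypeptidase, sterol transport and mucin genes. Of these, 6 were lowered (26.1%, against 6.23% of all genes) and 4 raised (17.4%, against 4.10%).

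The 4 raised genes of that list were mucins, which coat the gut lining. Among 11 mucin and peritrophin genes, compiled after their values were seen, 5 were raised, none was lowered and 10 had a ratio above 1. Muc96D rose from 895 to 2616 CPM, Muc68Ca from 178 to 525 CPM, Muc11A from 346 to 918 CPM and Muc26B from 296 to 780 CPM.

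Antimicrobial peptide genes were lowered as a whole group. These genes are switched on in fat body and gut by the Toll and Imd pathways when bacteria or fungi are sensed. All 10 at 10 CPM or more were lowered, against 6.23% of all genes, with a median log2 ratio of -2.23 and a range from -2.76 to -1.07. The minimum is set on the mean of both groups, so a member such as Mtk passed it through its higher group alone. AttC fell from 116 to 17.1 CPM, DptA from 376 to 68.8 CPM, DptB from 157 to 32.9 CPM and Mtk from 28.3 to 5.66 CPM. The similar copies AttA and AttB together went from 57.3 to 19.2 CPM. Of the Drosomycin family, Drsl5 fell from 53.2 to 5.19 CPM and Drs was at 108 and 74.2 CPM. The gene edin, whose product is needed in the response to infection, fell from 32.2 to 0.824 CPM.

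The wider list of 34 Toll and Imd genes did not move as one. It held 6 lowered and no raised gene, 16 ratios above 1 and a median log2 ratio of -0.02. The lowered genes that led it were secreted peptidoglycan recognition proteins, which bind or cleave bacterial wall fragments. PGRP-SC1a and PGRP-SC1b, near-identical copies, went from 385 to 65.4 CPM and from 391 to 52.96 CPM, PGRP-SB1 from 64.3 to 21.5 CPM and PGRP-SD from 31.9 to 12.2 CPM. TotA, the 1 gene of the Turandot stress family at this level, was at 764.5 and 417 CPM.

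Blood cell genes and matrix genes were mostly higher. Of 12 haemocyte genes, 4 were raised (33.3%, against 4.10% of all genes) and 1 was lowered (8.33%, against 6.23%). Among the raised 4, vkg and Ppn are also members of the basement membrane list. PPO2, the prophenoloxidase of crystal cells that melanises wounds, rose from 498 to 1249 CPM and PPO1 from 297 to 608 CPM, while Hml, the plasmatocyte marker, was at 338 and 454 CPM. NimC2, of a family of phagocytic receptors, fell from 246 to 26.6 CPM. Among 11 genes of the basement membrane, a list compiled after their values were seen, 3 were raised and 10 had a ratio above 1, with a median log2 ratio of 0.66. The collagen IV gene vkg rose from 468 to 1252 CPM, the proteoglycan gene Ppn from 117 to 391 CPM and prc, a partner of collagen in the heart matrix, from 8.73 to 52.9 CPM. Col4a1, the other collagen IV gene, was at 799.6 and 1492 CPM.

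Cuticle genes moved in both directions. Of 59, 13 were raised and 10 lowered, and their median log2 ratio was 0.19. TwdlO rose from 8.64 to 79.1 CPM, Cpr47Eg from 142 to 648 CPM and Lcp65Ag2, 1 of several similar copies, from 16.3 to 66.2 CPM. Cpr78E fell from 410.4 to 28.9 CPM, and the similar larval genes Lcp1 and Lcp2 together fell from 4579 to 1943 CPM. In 13 tanning and yellow genes, compiled after their values were seen, 5 were lowered (38.5%, against 6.23% of all genes) and none raised. The lowered genes included ple, tyrosine hydroxylase of dopamine synthesis, from 149 to 31.4 CPM, yellow-d2 from 107.5 to 15.7 CPM, yellow-f from 63.7 to 19.5 CPM and Pu, which makes the cofactor of that hydroxylase, from 72.7 to 29.9 CPM.

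Body wall muscle genes had a median log2 ratio of 0.56 over 24 genes, with 17 ratios above 1. The abundant larval actin gene Act57B was at 10084 and 18592 CPM, below the 2-fold limit. The giant sarcomere proteins went apart: sls (titin-like) rose from 32.5 to 147 CPM, while bt (projectin) fell from 222 to 57.5 CPM and Unc-89 (obscurin) from 30.7 to 6.55 CPM. These 3 genes have many transcripts, of which only those with a value in both groups were summed.

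**Figure D3:**
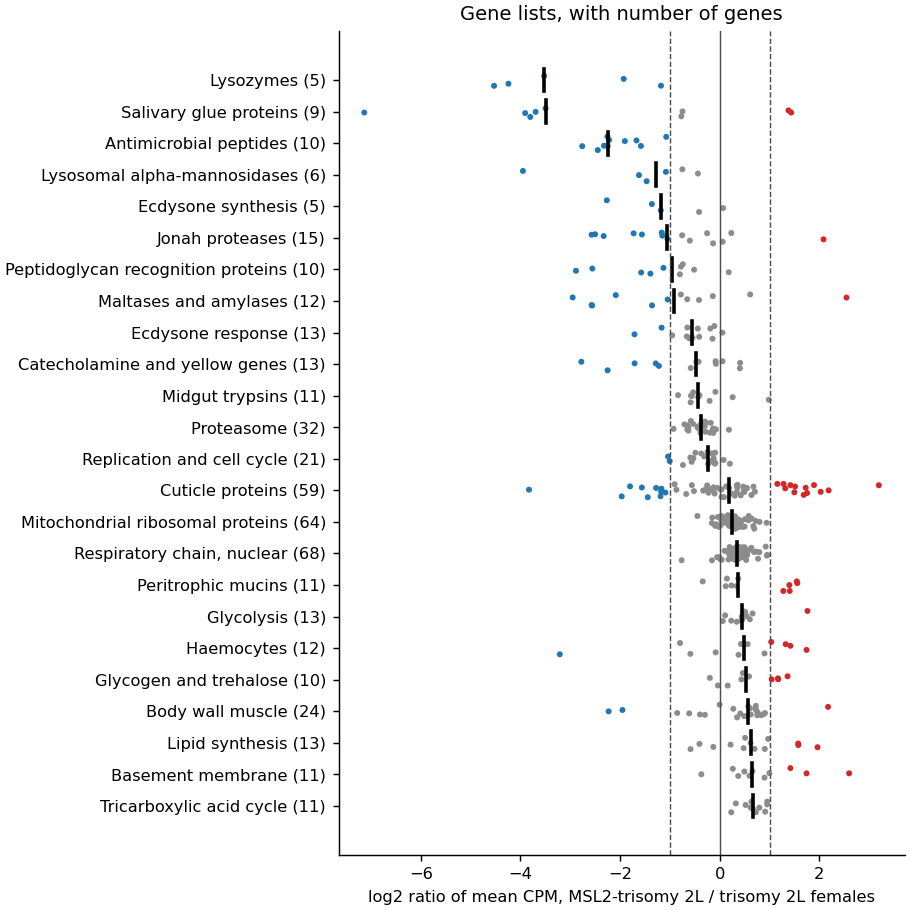
The log2 ratio of mean CPM, MSL2-trisomy 2L over trisomy 2L females, for each gene of 24 lists (numbers of genes in brackets); black bars are list medians, dashed lines mark 2-fold, red points are raised and blue points lowered. Points are spread vertically at random for sight. Lysozymes, glue genes and antimicrobial peptides have the lowest medians and the tricarboxylic acid cycle, at 0.67, the highest of those drawn.

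Genes of detoxification moved in both directions. Of 47 cytochrome P450 genes, 5 were raised (10.6%, against 4.10% of all genes) and 7 lowered (14.9%, against 6.23%), and their median log2 ratio was -0.10. Cyp6a2, a P450 linked to insecticide resistance, rose from 17.9 to 99.1 CPM, while Cyp12d1-d fell from 21.5 to 2.25 CPM and Cyp6g1, linked to DDT resistance, from 332 to 74.3 CPM. The pseudogene Cyp9f3Psi was at 17.5 and 4.34 CPM. Of 27 glutathione S-transferase genes, GstD9, at 19.02 and 3.99 CPM, GstD10, at 16.8 and 7.52 CPM, and GstT4, at 238 and 110.2 CPM, were lowered (11.1%) and none was raised. Ugt37c1, at 6.31 and 16.04 CPM, was the only gene of 7 UDP-glycosyltransferases past 2-fold.

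Hsp22, a small heat shock protein of mitochondria, rose from 3.48 to 123 CPM, and no other of 7 small heat shock genes passed 2-fold. The annotated exons of Hsp22 are shared in full with CG4456, which was lowered from 26.3 to 8.21 CPM. The sum of both was 29.8 CPM without and 131 CPM with MSL2. The near-identical Hsp70 copies went apart, with Hsp70Aa at 35.2 and 16.2 CPM and Hsp70Bb at 16.1 and 33.7 CPM, and all Hsp70A and Hsp70B copies summed to 136 and 196 CPM. Jheh2, an epoxide hydrolase that can inactivate juvenile hormone, rose from 37.5 to 308 CPM, and an antisense RNA covers 91.6% of its exon bases. Its neighbours Jheh1, at 66.3 and 79.4 CPM, and Jheh3, at 191 and 250.2 CPM, did not pass 2-fold. The juvenile hormone receptor gene gce was at 8.39 and 17.5 CPM, just past the limit. The odorant-binding protein genes Obp99b and Obp56d fell from 5097 to 1697 CPM and from 283 to 134 CPM.

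Several large sets of housekeeping genes moved by small steps in 1 direction, with few or no members past 2-fold. Of 68 nuclear genes of the respiratory chain and ATP synthase, 64 had a ratio above 1, with a median log2 ratio of 0.35, and none passed 2-fold. The ATP synthase gene blw was at 1141 and 2201 CPM. All 13 glycolytic genes and all 11 tricarboxylic acid cycle genes, the second list compiled after their values were seen, had ratios above 1, with medians of 0.45 and 0.67. In glycolysis PyK, pyruvate kinase, was at 737 and 1165 CPM, and Gpdh, at 13.2 and 44.7 CPM, was the only gene past 2-fold. Of 64 mitochondrial ribosomal protein genes, 56 had a ratio above 1 (median 0.26), and of 20 genes of the vacuolar ATPase, which acidifies organelles, 16 did (median 0.30). Vha44 alone among the latter was raised, from 15.6 to 53.1 CPM. Most of its rise lay in 1 of 5 transcripts, at 3.90 and 41.5 CPM. The transcript that was highest without MSL2 was at 6.75 and 3.75 CPM. In trisomy 2L males Vha44 was lowered, from 133 to 64.1 CPM. The part of the assignment of reads to transcripts in this rise was not tested.

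The proteasome and the cell cycle went the other way. Of 32 proteasome genes, which encode the protease that degrades ubiquitin-tagged proteins, 31 had a ratio below 1, with a median log2 ratio of -0.37 and none past 2-fold. Rpn11, the deubiquitinase of the lid, was at 224 and 145 CPM. Of 21 replication and cell cycle genes, 19 had a ratio below 1 (median -0.23). Cdk1, at 36.8 and 17.9 CPM, and CycA, at 39.9 and 19.9 CPM, were just past the limit. The 4 replication-independent histone genes at this level all had ratios below 1, with a median of -0.38. Over all 6469 genes, 56.4% of ratios were below 1 and 43.6% above, which is the background for these counts. That background varied with level. The median log2 ratio of all genes was -0.11 at 10 to 100 CPM, 0.07 at 100 to 1000 CPM and 0.17 at 1000 CPM or more. Lists of abundant genes therefore have a higher background than the median of all genes.

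**Figure D4:**
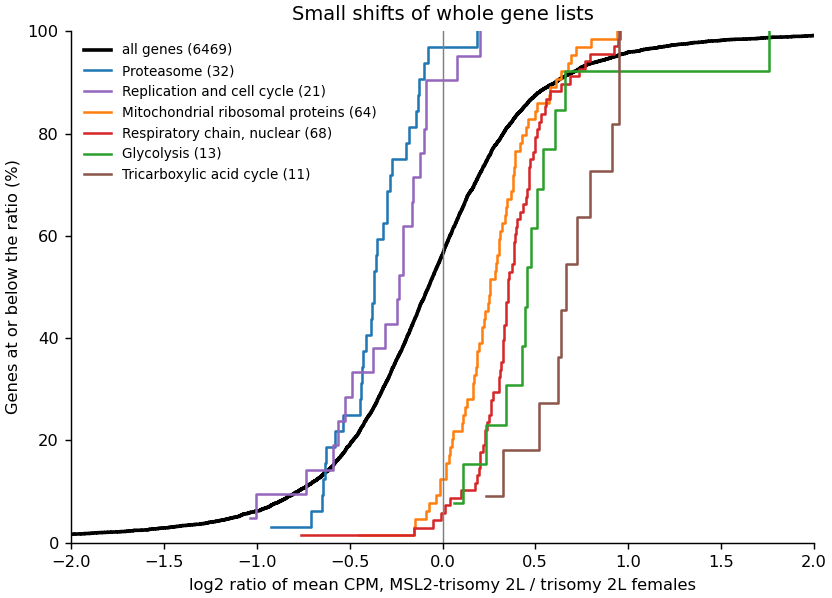
Cumulative share of genes (percent) at or below each log2 ratio of mean CPM, MSL2-trisomy 2L over trisomy 2L females, for all 6469 genes and 6 gene lists with numbers of genes in brackets. The proteasome curve lies to the left of the curve of all genes, with a median of -0.37, and the respiratory chain, glycolysis and tricarboxylic acid cycle curves to the right, with medians of 0.35, 0.45 and 0.67.

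Ribosomal protein genes had a median log2 ratio of 0.16 over 85 genes, with 2 raised and 1 lowered. All genes at 1000 CPM or more had a median of 0.17. RpS2 (arm 2L, bases 9896265 to 9897552) went from 169 to 26912 CPM, the largest rise among the genes named here, and held 2.82% of all CPM with MSL2. Nearly all of it lay in 1 of its 3 listed transcripts, which went from 155 to 26898 CPM, while the others were at 8.46 and 12.6 CPM and at 5.85 and 2.25 CPM. Without MSL2 the level of RpS2 lay below the list's median of 1503 CPM. The parts of the assignment of reads to transcripts and of the authors' batch adjustment in this rise were not tested. RpS15Aa, which has a similar copy, fell from 1358 to 658 CPM.

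The remaining genes with large changes have varied roles. The largest rises not yet described, among genes with a given name, were those of Gyf, a GYF-domain protein on chromosome 4, from 4.21 to 63.3 CPM, and of frac, a matrix protein gene, from 3.35 to 39.9 CPM. Further rises were those of rhea (talin, which ties integrins to actin), from 23.5 to 136 CPM, hdly, from 35.7 to 204 CPM, and the splicing factor gene Psi, from 9.68 to 64.6 CPM. In trisomy 2L males rhea was lowered instead, from 98.7 to 16.6 CPM with MSL2, while hdly and Psi were raised there as well. The sugar transferase gene beta4GalcTB was at 3.90 and 26.4 CPM and gcl, a gene of germ cell formation, at 2.65 and 18.4 CPM. When transcripts with a value in only 1 group were added, gcl had a log2 ratio of 0.09 and Gyf of 1.96. Of the falls, Cad99C, a cadherin gene, went from 23.01 to 1.51 CPM but had a log2 ratio of -0.29 with such transcripts added.

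Among other falls, Tsp42Ep, a tetraspanin in a gene cluster on arm 2R, went from 180.1 to 18.8 CPM, and Tsp42Ek from 108 to 22.7 CPM, while Tsp42Eb rose from 9.58 to 44.9 CPM. That cluster of 15 genes was compiled after their values were seen. In it, 3 were lowered (20%, against 6.23% of all genes) and 1 raised (6.67%, against 4.10%). CG8997 and CG7916, neighbours on arm 2L without a given name, fell from 3644 to 378 CPM and from 2432 to 199.9 CPM. The abundant CG6770 and CG8664 fell from 2168 to 988 CPM and from 1963 to 915 CPM. Single members of other lists were chico, the insulin receptor substrate, at 44.8 and 16.5 CPM, nrv3, a neuronal sodium pump subunit, at 21.1 and 7.28 CPM, armi, a gene of piRNA production that shares 99.6% of its exon bases with CG46463, at 22.7 and 8.27 CPM, and the yolk protein gene Yp3, at 40.5 and 13.6 CPM. None of the 10 ER chaperone genes and none of the 11 stress and apoptosis genes passed 2-fold, with medians of 0.20 and -0.17. At the shares of all genes, lists this short would hold few or no called genes. No gene of a list of 26 spermatocyte genes reached 10 CPM.

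The same gene ratios were then read in trisomy 2L males and in metafemales (XXX), whose MSL2 groups have fathers of the same MSL2 strain and whose controls have Canton S fathers. Each comparison has its own libraries. The series lists 3 libraries for each trisomy 2L group, but only 2 for metafemales and 2 for MSL2-metafemales. Both metafemale groups also came from mothers of a different stock from those of the trisomy 2L larvae. In males, 208 genes (2.62%) were raised and 161 (2.03%) lowered of 7946, and in metafemales 378 (6.01%) and 168 (2.67%) of 6287. The MSL2-metafemale mean sums to more than CPM can, so counts and ratios of metafemales are less comparable with the others. Of 240 genes raised in females and at 10 CPM or more in both comparisons, 46 were also raised in males, which is 19.2% of the female and 27.1% of the male calls, and 12 were lowered there. Of 378 lowered genes, 30 were also lowered in males (7.94% and 24.2%), and 28 were raised. With metafemales, 53 of 207 raised genes (25.6% and 16.5%) and 36 of 317 lowered genes (11.4% and 25.0%) were shared, and 10 raised and 27 lowered genes were called in the opposite direction. Differences between the 3 comparisons could not be tested on group means.

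The genes called in all 3 comparisons were 18 of 199 raised and 10 of 307 lowered ones with the required level in each. Besides msl-2, whose log2 ratio was 2.33 in males and 3.52 in metafemales, the raised genes included Cyp6a2, Cyp6w1, hdly, Gyf, Vps13, kuk, teq and unnamed genes such as CG7299 (7.86 and 169 CPM in females) and CG7255 (39.3 and 402 CPM). The lowered ones were LysB, LysC, LysE, Cyp12d1-d, Unc-89, wat, Gbp2, CG15553, CG30031 and CG33333. LysB had log2 ratios of -4.53 in trisomy 2L females, -3.47 in males and -2.52 in metafemales. These genes differ between larvae of the same 2 kinds of fathers in every comparison, so MSL2 and the father's strain cannot be told apart for them.

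Other groups had different values in the 3 comparisons. The median log2 ratio of the 9 glue genes was -3.50 in females, 0.53 in males and -1.05 in metafemales. Sgs3 was at 2425 and 3493 CPM in males without and with MSL2. For the 10 antimicrobial peptide genes the medians were -2.23, -0.62 and 0.32, and for the 15 Jonah genes -1.05, 0.34 and 0.44. The 13 ecdysone response genes had medians of -0.55, 0.48 and 0.03, the 32 proteasome genes -0.37, 0.26 and -0.16 and the 68 respiratory chain genes 0.35, -0.15 and 0.06. Hsp22 and Jheh2, by contrast, had like values in both sexes of trisomy 2L, with log2 ratios of 5.48 and 3.21 in males, and were at -0.02 and -0.37 in metafemales. RpS2 had a log2 ratio of 5.32 in males and 0.03 in metafemales, where it was at 1727 CPM without MSL2.

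**Figure D5:**
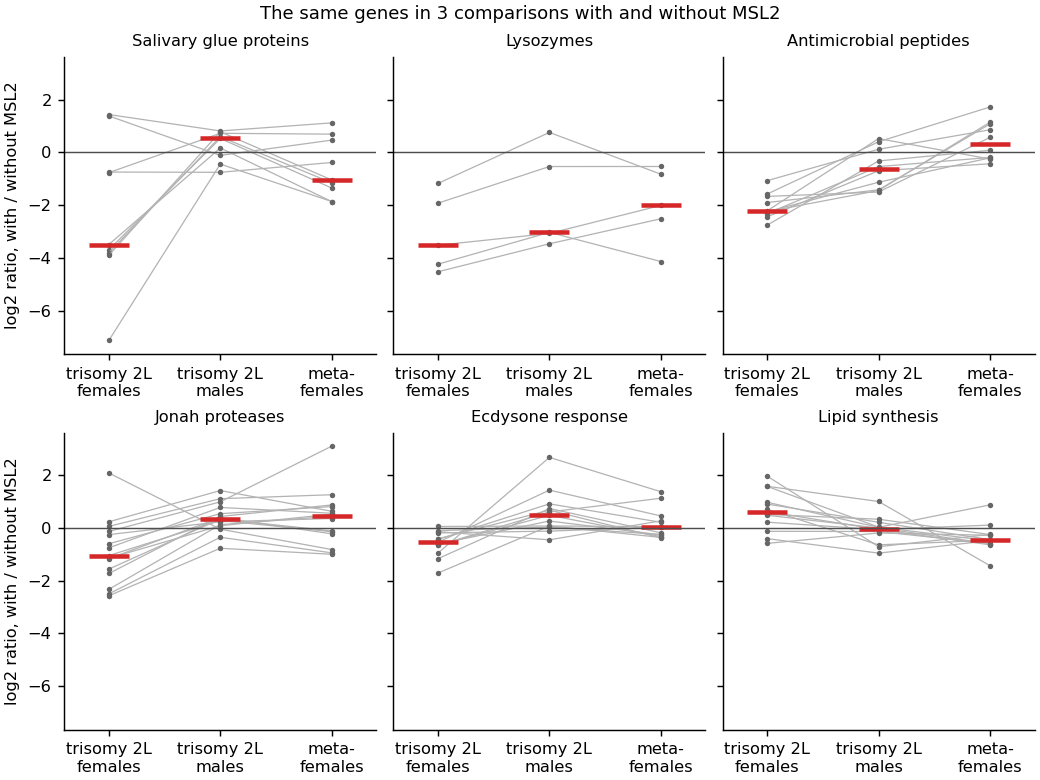
The log2 ratio of mean CPM with over without MSL2 for the genes of 6 lists in trisomy 2L females, trisomy 2L males and metafemales; each grey line joins 1 gene and red bars are list medians. Lysozymes have medians below 0 in all 3 comparisons (-3.52, -3.04 and -2.01), whereas glue genes have -3.50, 0.53 and -1.05.

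The tissue markers checked in these larvae showed fat body, salivary gland, midgut, muscle, cuticle and blood cell RNA in both groups. The summed CPM of salivary gland markers was 4989 without and 401 with MSL2, but these markers are the glue genes Sgs3, Sgs7, Sgs8 and ng1 described above and give no separate reading of the gland. Midgut markers summed to 10266 and 3774 CPM, carried by LysB and Jon65Aiv, while alphaTry was at 414 and 278 CPM and betaTry at 653 and 567 CPM. For fat body markers the sums were 89895 and 87648 CPM, with Lsp1beta higher, Lsp2 and Fbp1 lowered, Fbp2 at 8427 and 5992 CPM and apolpp at 4388 and 4313 CPM. For muscle they were 17548 and 28245 CPM, with Act57B, Mlc2 and wupA higher and Mhc at 769.6 and 419 CPM. Blood cell markers summed to 1218 and 2421 CPM. Cuticle markers summed to 7403 and 6220 CPM, and neuronal, dividing cell and prothoracic gland markers were at or under 103 CPM in sum. Male germ line markers were near 0 in both groups, at sums of 0.726 and 0.386 CPM. Mal-A1 of the midgut list and PCNA of the dividing cell list had no row under these symbols and were not counted. The part of tissue make-up in the ratios of single genes was not tested.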

How the data were processed

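RNA of whole larvae from 6 groups of genotype and sex was sequenced. The authors mapped reads with HISAT2 to genome Release 6, assembled and counted transcripts with StringTie, and divided counts by mapped reads to give CPM. The authors adjusted CPM for sequencing batch with ComBat on a temporary log scale, removed values not above 0, averaged the replicates and deposited 1 mean CPM per transcript and group, so a mean can rest on fewer libraries than listed. The mean of MSL2-metafemales sums to more than CPM can and was therefore treated as a score in CPM units set by the authors' adjustment. The methods list trisomy 2L libraries in the sequencing group of the MSL2 ones and also in another, single-end group, and do not state which entered the means. If libraries of the other group did, batch and MSL2 cannot be told apart. The paper's stated reason for the adjustment was that trisomic and MSL2-trisomic samples came from different sequencing batches.

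Transcripts with both means were summed by gene symbol, and each gene's log2 ratio was taken from its 2 sums. Of the symbols, 13 that were blank, had become date numbers or lay on 2 arms were left out. Of genes at 10 CPM or more, 99.2% matched a RefSeq symbol or synonym. The 4 columns of diploid means and the 11 columns of the authors' ratios of group means were not used. Depth is unknown. Named genes were the MSL complex genes, the 15 largest rises and falls with a given name, every gene past 2-fold at 1000 CPM, and up to 4 called genes per list. Others that are named were chosen after their values were seen. A gene that this rule names is not reported here. Lists and members were chosen with earlier results of these data known. Calls were run on simulated data only to check the code, with changes set past 2-fold and little added noise. That run gives no error rate for the calls on the real means. Alternatives were 3 scalings, pseudocounts of 0.5 and 1 CPM, other minimum levels, and other choices of transcripts. Python 3.11.15, numpy 2.4.6, pandas 2.3.3 and matplotlib 3.10.9 were used.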

Additional observations from a re-analysis of the deposited data

How the results depend on the processing

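No paired analysis was possible because the table holds 1 mean per group, and for the same reason no library could be left out. With the minimum mean set to 1 CPM, 500 genes were raised and 760 lowered, with 50 CPM 115 and 156, and with no minimum 945 and 1296, since these settings change the number of genes read. With 10 CPM required in each group, 191 genes were raised and 269 lowered, and the other called genes passed the minimum through their higher group alone. Under the remaining alternatives, raised genes numbered 249 to 348 and lowered genes 352 to 485. A trimmed mean of the log2 ratios set to 0 gave 323 raised and 352 lowered genes, and equal column totals 249 and 446. Of the 265 raised and 403 lowered genes, 240 and 388 also passed 2-fold with all transcripts and with the most abundant transcript alone. At a minimum of 50 CPM the median log2 ratio of the lipase and carboxypeptidase list was 0.12, opposite in sign to the value at 10 CPM. The ecdysone synthesis list also changed sign there, to 0.069. That value is the ratio of 1 gene, the only member of the list with a ratio above 1. Of the named genes, Adh, Cad99C, Cdk1, CycA, Gbs-76A, Obp56d, PhKgamma, RpS15Aa, gce, gcl and mle did not pass 2-fold under at least 1 alternative, and roX1 passed it only with its most abundant transcript alone, at a log2 ratio of 2.19. None of the named genes past 2-fold changed direction under the scalings, pseudocounts and choices of transcripts.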

Other observations

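Besides LysD, CG7924 and thw were listed at 29.5 and 24.5 CPM in trisomy 2L females and had no value in MSL2-trisomy 2L females. No gene at 20 CPM or more with MSL2 lacked a value without it. LysD was at 734 CPM in trisomy 2L males without MSL2 and had no value with it, and was at 17.8 and 1.31 CPM in metafemales.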
